A study of Mus musculus with 58 samples.

Results

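The genes described here are 10 immediate early genes, Arc, Npas4, Fos, Fosb, Junb, Egr1, Egr2, Egr4, Nr4a1 and Dusp1. They were taken by symbol from a table of read counts for 15171 genes in 58 mice, and all 10 were in it. At 14 days after a traumatic brain injury (TBI) all 10 were lower in injured than in sham mice in the fit over all 58 mice, with log2 fold changes from −1.24 for Arc to −0.32 for Junb. Within single genotypes, Arc, Npas4, Fosb, Egr1 and Nr4a1 passed the test in each of the 4 genotypes, and the other 5 genes in 1 to 3 of them. None of the 10 was called higher after TBI in any genotype.

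RNA was sequenced from hippocampus and cortex at the injury site, freed of subcortical tissue by dissection, of C57BL/6 mice injured or sham operated at 3 months of age and killed 14 days later. In all of these mice human APOE3 or APOE4 replaced the mouse Apoe gene on both alleles (E3 and E4), so no group with mouse Apoe is present, and each isoform was studied with both copies of Abca1 (Abca1+/+) or with 1 functional copy (Abca1+/-). The injury was a controlled cortical impact through an opening in the skull over the left parietal cortex, and sham mice had the same anesthesia and opening without impact. Groups held 8 E3/Abca1+/+ sham, 8 E3/Abca1+/+ TBI, 7 E3/Abca1+/- sham, 6 E3/Abca1+/- TBI, 7 E4/Abca1+/+ sham, 7 E4/Abca1+/+ TBI, 7 E4/Abca1+/- sham and 8 E4/Abca1+/- TBI mice, 28 females and 30 males in all. Before the tissue was taken, every mouse was anesthetized with Avertin and perfused with buffered saline, and the time from handling to freezing is not given in the sources used here.

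Immediate early genes are transcribed within minutes of a stimulus, without new protein synthesis. In neurons, synaptic activity and calcium entry switch them on through kinases that act on factors already bound at their promoters, CREB at cAMP response elements (CRE) and serum response factor at CArG boxes, and the RNA is short-lived, so a level reflects recent signaling. The 10 genes fall into transcription factors of the AP-1 group (Fos, Fosb and Junb), zinc finger factors of the Egr family (Egr1, Egr2 and Egr4), the orphan nuclear receptor Nr4a1, the neuron-restricted factor Npas4, the synaptic effector Arc and the feedback inhibitor Dusp1. In hippocampus and cortex they are used as readouts of neuronal activity.

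Promoter windows from RefSeq were used for 8 of the 10 genes, all but Arc and Egr1, 300 bases each on GRCm38.p6, running from 250 bases before a transcription start to 50 after it. A window of all 8 genes held the core TGACG of a CRE on either strand, against 23.0% of 27025 genes with a window of the same kind. The full palindrome TGACGTCA, which overlaps the core, was found in 1 gene, Dusp1 (2.03% of all genes), a CArG box in 1 gene, Egr2 (1.81%), and TATAAA in Fos and Junb (15.7%). A match is a run of letters in the window, not a shown binding site. The CArG box was searched only as CC, 6 letters A or T, then GG. Other spellings and sites outside the windows were not searched, so a gene without a match may still have a CArG box. The 250 bases before the start are given below for the 3 of these genes that were lower after TBI in every genotype, for Fos and for Dusp1, 5′ to 3′ along the gene, with each TGACG or its complement CGTCA in capitals.
Npas4, chr19:4989972-4990221, minus strand: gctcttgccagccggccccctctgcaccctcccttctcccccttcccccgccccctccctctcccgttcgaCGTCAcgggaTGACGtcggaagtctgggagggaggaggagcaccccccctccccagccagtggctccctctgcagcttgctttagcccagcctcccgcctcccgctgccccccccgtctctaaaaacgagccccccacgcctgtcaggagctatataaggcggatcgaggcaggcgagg
Fosb, chr7:19310046-19310295, minus strand: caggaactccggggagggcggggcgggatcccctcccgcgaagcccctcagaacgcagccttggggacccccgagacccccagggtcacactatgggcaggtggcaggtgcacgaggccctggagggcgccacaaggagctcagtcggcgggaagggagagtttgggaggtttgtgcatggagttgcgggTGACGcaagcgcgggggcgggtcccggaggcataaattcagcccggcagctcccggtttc
Nr4a1, chr15:101266596-101266845, plus strand: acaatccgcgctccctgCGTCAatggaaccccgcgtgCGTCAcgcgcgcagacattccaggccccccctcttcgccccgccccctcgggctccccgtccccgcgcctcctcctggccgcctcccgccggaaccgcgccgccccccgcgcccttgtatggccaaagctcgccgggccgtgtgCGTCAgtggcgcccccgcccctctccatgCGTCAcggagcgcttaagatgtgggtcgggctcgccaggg
Fos, chr12:85473640-85473889, plus strand: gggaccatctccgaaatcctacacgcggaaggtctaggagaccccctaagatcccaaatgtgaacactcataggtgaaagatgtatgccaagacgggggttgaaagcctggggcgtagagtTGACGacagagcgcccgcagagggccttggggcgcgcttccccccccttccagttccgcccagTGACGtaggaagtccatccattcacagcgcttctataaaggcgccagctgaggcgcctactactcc
Dusp1, chr17:26508473-26508722, minus strand: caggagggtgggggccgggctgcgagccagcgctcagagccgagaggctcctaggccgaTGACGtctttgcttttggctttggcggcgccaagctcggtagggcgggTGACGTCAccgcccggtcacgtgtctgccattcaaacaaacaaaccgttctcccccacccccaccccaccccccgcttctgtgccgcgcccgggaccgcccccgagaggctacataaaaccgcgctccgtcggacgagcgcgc
Counted from the start, Npas4 has 2 cores in this stretch at −179 and −169, Fosb 1 at −60, Nr4a1 4 from −233 to −40, Fos 2 at −129 and −66, and Dusp1 3, of which 2 form its palindrome at −143.

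Read counts were compared as CPM, that is, scaled to a common library size with TMM factors, tested with edgeR's quasi-likelihood test on the counts, and called at a Benjamini-Hochberg adjusted p under 0.05 over all genes. Library totals ran from 4421308 to 37877346 reads, with medians of 8350020 in Abca1+/+ and 18871445 in Abca1+/- mice, so that depth moved with Abca1 copy number. The 8th E4/Abca1+/- TBI mouse stood apart, with a summed level of 10 striatal and thalamic marker genes of 731 CPM, against a range of 157 to 310 CPM over all sham mice, and the lowest sum of hippocampal markers of its group, 346 CPM. Its sums of markers of cortical neurons (775 CPM), of neurons (10249.9 CPM) and of microglia and macrophages (1656 CPM) were the highest of its group. The cortical sum was also above every sham mouse of its genotype (highest 760 CPM). This mouse is included, and without it the call of 1 of the 10 genes changed, that of Egr2.

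To compare levels between genes, CPM were divided by the length of all annotated exons of each gene, with overlaps counted once. This length can exceed that of a single transcript, so the order between genes depends in part on the annotation. In sham mice the mean level per kilobase was 90.6 CPM for Arc and 72.7 for Egr1, followed by 27.7 for Nr4a1, 21.0 for Junb, 14.0 for Fos, 8.63 for Egr4 and 7.02 for Dusp1. Npas4, Fosb and Egr2 were the lowest and close together, at 3.92, 3.88 and 3.69 CPM per kilobase. For Npas4, single sham mice ran from 1.19 to 9.64 CPM per kilobase, a range that spans the means of its neighbours in this order.

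All 10 genes varied widely between mice of the same group. The biological coefficient of variation, the spread between mice beyond counting error, was from 24.1% for Fosb and 24.5% for Dusp1 to 43.6% for Npas4 and 44.4% for Egr2. Among the 9479 genes within the same range of mean level the median was 7.76%, and the 10 genes lay between the 97.8th and the 99.8th percentile. The plot of spread against level shows the 10 genes above most of the genes of their level.

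**Figure D1:**
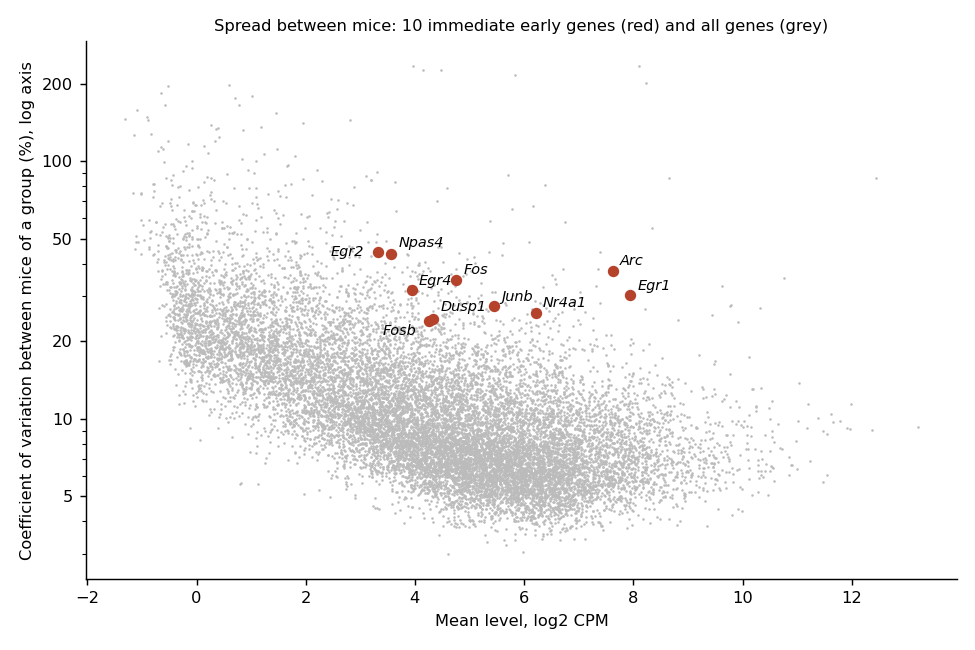
Coefficient of variation between mice of a group (%, log axis) against mean level (log2 CPM) for every gene in the table, with the 10 immediate early genes in red. The 10 genes lie between 24.1% and 44.4%, where genes in the same range of level have a median of 7.76%.

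The first question was how injury changed the 10 genes within each genotype. In E3/Abca1+/+ mice 5 of 10 were called lower after TBI, in E3/Abca1+/- mice 10, in E4/Abca1+/+ mice 7 and in E4/Abca1+/- mice 7, where 9.49%, 10.1%, 4.50% and 12.7% of all genes were called lower. Averaged over the 4 genotypes in 1 fit, 10 of 10 were called lower, against 24.3% of all genes. Their median log2 fold change in that fit was −0.87, where the median of all 15171 genes was 0.01. Counted from the most reduced gene of the table, Arc ranked 3, Npas4 5, Egr1 13, Nr4a1 15, Egr2 21 and Fosb 33, while Junb ranked 528. Of all genes, 391 (2.58%) were called lower in all 4 genotypes, and 5 of them are among the 10. Those 5, Arc, Npas4, Fosb, Egr1 and Nr4a1, kept the call in each genotype when each mouse was left out in turn.

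**Figure D2:**
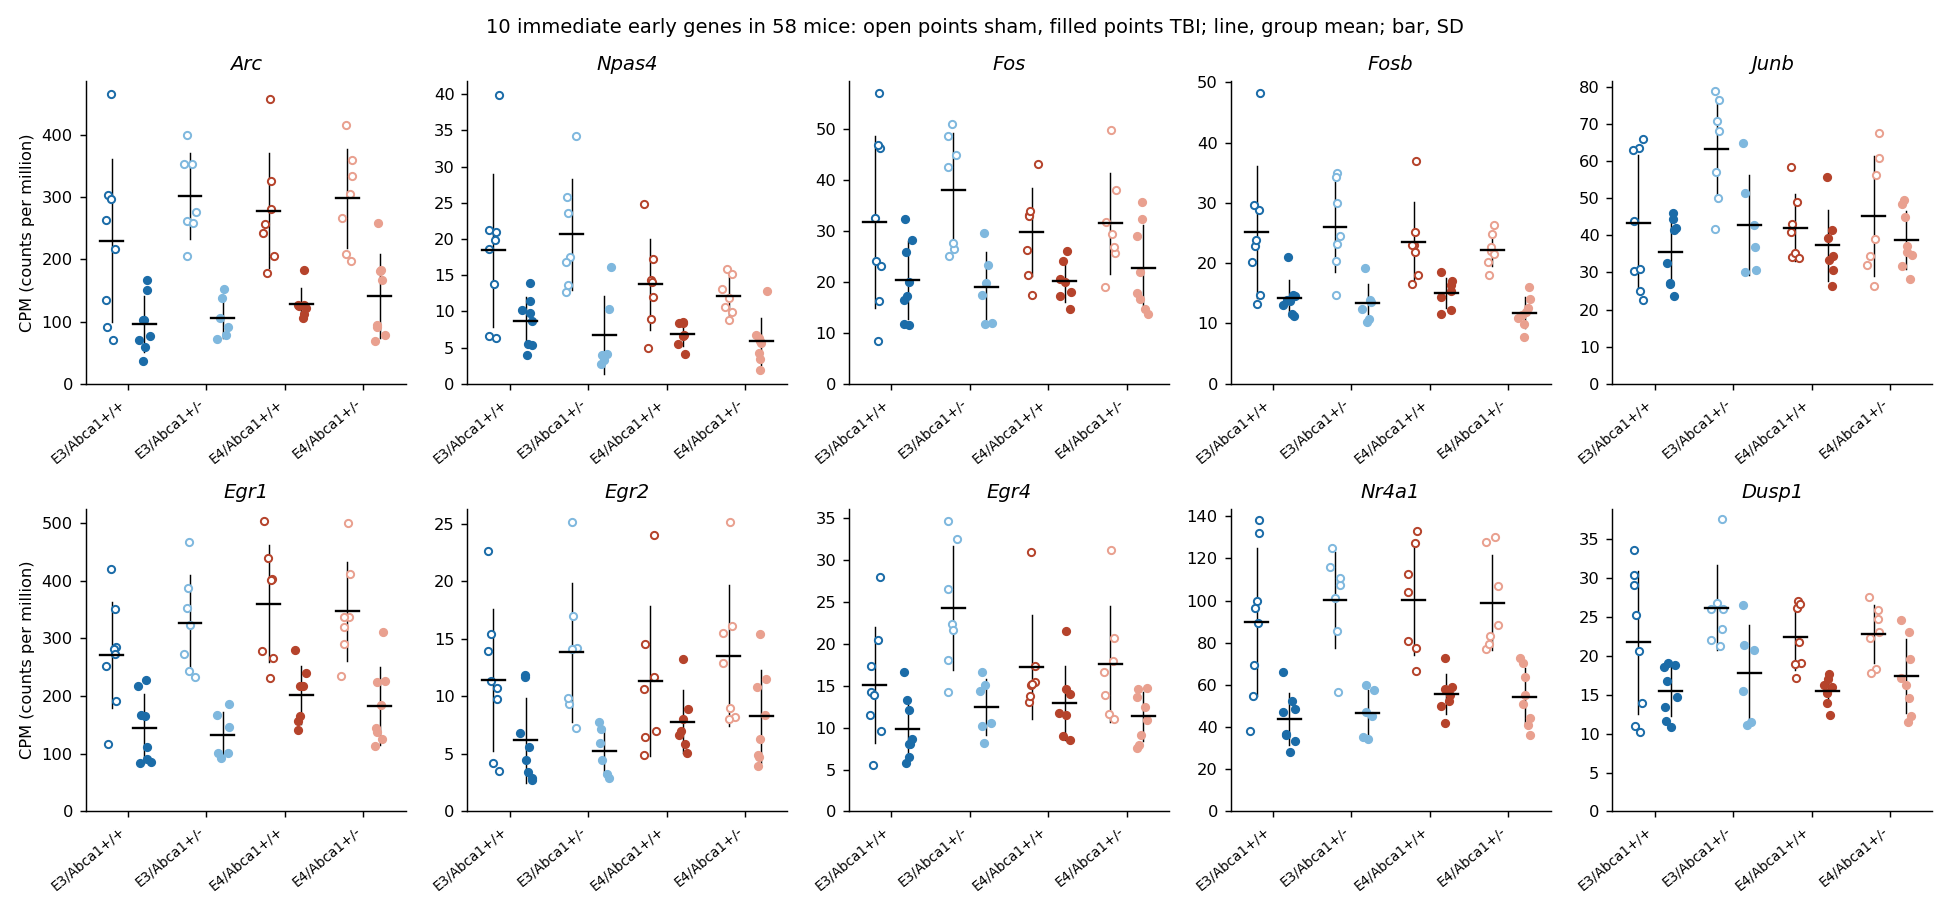
CPM of the 10 genes in each of 58 mice, by genotype, with sham mice as open and TBI mice as filled points, the line at the group mean and the bar at 1 SD. The TBI mean lies below the sham mean in all 40 pairs of groups, and in 4 of them no TBI mouse reaches the lowest sham mouse.

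Arc encodes a synaptic protein that takes part in the removal of AMPA receptors from synapses. The log2 fold change of Arc was the lowest of the 10 as a mean of the 4 genotypes, while in E3/Abca1+/- mice that of Npas4 was lower. The values of Arc in each genotype follow. In E3/Abca1+/+ mice Arc ran from 70.3 CPM over a median of 239.9 to 465 in sham and from 36.1 over 89.4 to 167 in TBI mice. In E3/Abca1+/- mice it ran from 205 over 277 to 401 CPM in sham and from 71.3 over 98.8 to 153 in TBI mice, and these groups did not overlap. Every TBI mouse of the 2 E3 genotypes lay below the sham median, and overlap in E3/Abca1+/+ mice came from the lower sham mice. Among E4/Abca1+/+ mice Arc ran from 178 over 257 to 457 CPM in sham and from 106 over 126 to 182 in TBI mice, where 1 TBI mouse reached the sham range. In E4/Abca1+/- mice it ran from 197 over 305 to 417 CPM in sham and from 69.2 over 131 to 259 in TBI mice. The TBI mouse at 259 CPM is the mouse that stood apart in its marker sums, and the other 7 lay below every sham mouse. The log2 fold changes were −1.27 ± 0.33 (SE, adjusted p = 0.00772), −1.50 ± 0.19 (2.17e-05), −1.11 ± 0.17 (0.000374) and −1.09 ± 0.26 (0.00369) in this order of genotypes. Without the mouse that stood apart the last value was −1.28.

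Npas4 encodes a transcription factor induced in neurons by calcium entry. In E3/Abca1+/+ mice it ran from 6.39 over 19.2 to 39.9 CPM in sham and from 4.02 over 9.27 to 13.9 in TBI mice. In E3/Abca1+/- mice it ran from 12.7 over 17.5 to 34.2 CPM in sham and from 2.69 over 4.08 to 16.2 in TBI mice. All E3 TBI mice were under their sham median, and in both genotypes the groups overlapped. Among E4/Abca1+/+ mice Npas4 ran from 4.94 over 14.0 to 24.8 CPM in sham and from 4.07 over 6.69 to 8.49 in TBI mice, where 6 of 7 sham mice lay above every TBI mouse. In E4/Abca1+/- mice it ran from 8.77 over 11.8 to 15.8 CPM in sham and from 1.91 over 5.77 to 12.8 in TBI mice, and 7 of 8 TBI mice lay below every sham mouse. The log2 fold changes were −1.12 ± 0.31 (adjusted p = 0.0129), −1.66 ± 0.37 (0.00361), −0.98 ± 0.25 (0.0131) and −1.05 ± 0.26 (0.00528). With the spread estimated over all 58 mice, the E4/Abca1+/+ value of −0.98 had an adjusted p of 0.0546 by edgeR and was no longer called.

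Egr1, also known as Zif268, is a zinc finger factor tied to the maintenance of synaptic plasticity. It ran from 116 over 277 to 420.1 CPM in E3/Abca1+/+ sham mice and from 83.5 over 139 to 228 in TBI mice. In E3/Abca1+/- mice it ran from 234 over 323 to 466 CPM in sham and from 93.3 over 124 to 187 in TBI mice. The E3/Abca1+/- groups were apart, as for Arc, and in E3/Abca1+/+ mice 4 of 8 TBI mice lay below the lowest sham mouse. Among E4/Abca1+/+ mice Egr1 ran from 232 over 401 to 503 CPM in sham and from 141 over 216 to 280.0 in TBI mice. In E4/Abca1+/- mice it ran from 234 over 337 to 499 CPM in sham and from 113 over 165 to 311 in TBI mice, where the value of 311 again came from the mouse that stood apart. The log2 fold changes were −0.92 ± 0.24 (adjusted p = 0.00699), −1.30 ± 0.19 (0.000110), −0.83 ± 0.18 (0.00447) and −0.92 ± 0.20 (0.00186), and −1.08 in E4/Abca1+/- mice without that mouse.

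Nr4a1, also known as Nur77, is an orphan nuclear receptor, and it had the smallest p of the 10 in the fit over all mice. In E3/Abca1+/+ mice it ran from 38.1 over 92.8 to 138 CPM in sham and from 28.1 over 42.1 to 66.2 in TBI mice, and in E3/Abca1+/- mice from 56.8 over 107 to 125 in sham and from 34.5 over 46.3 to 59.9 in TBI mice. In E4/Abca1+/+ mice it ran from 66.4 over 104 to 133 CPM in sham and from 41.8 over 55.2 to 72.9 in TBI mice, and in E4/Abca1+/- mice from 77.2 over 88.5 to 130.2 in sham and from 36.3 over 53.1 to 72.7 in TBI mice. The last pair of groups did not overlap, and in each of the other 3 genotypes 6 sham mice lay above every TBI mouse. Its log2 fold changes were close to each other, at −1.05 ± 0.21 (adjusted p = 0.00101), −1.11 ± 0.17 (0.000140), −0.84 ± 0.15 (0.00104) and −0.88 ± 0.16 (0.000355).

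Of the AP-1 factors, Fosb was lower in all 4 genotypes, Fos in 2 and Junb in 1. AP-1 is a dimer of a Fos and a Jun protein that binds DNA. Fosb ran from 13.3 over 23.3 to 48.2 CPM in E3/Abca1+/+ sham mice and from 11.2 over 13.8 to 21.0 in TBI mice, and in E3/Abca1+/- mice from 14.8 over 24.6 to 35.02 in sham and from 10.3 over 13.0 to 19.2 in TBI mice. In E4/Abca1+/+ mice it ran from 16.6 over 23.0 to 37.0 CPM in sham and from 11.5 over 15.4 to 18.5 in TBI mice, and in E4/Abca1+/- mice from 17.96 over 22.02 to 26.3 in sham and from 7.70 over 11.6 to 16.1 in TBI mice. Only the E4/Abca1+/- groups of Fosb were apart, while every TBI mouse of all 4 genotypes lay below its sham median. The log2 fold changes of Fosb were −0.82 ± 0.21 (adjusted p = 0.00625), −0.96 ± 0.19 (0.00142), −0.63 ± 0.15 (0.0105) and −0.91 ± 0.12 (2.06e-05).

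Fos, the partner most used as an activity marker, was called lower in E3/Abca1+/- mice (log2 fold change −1.01 ± 0.23, adjusted p = 0.00368) and E4/Abca1+/+ mice (−0.57 ± 0.17, adjusted p = 0.0341). Group means fell from 38.1 ± 11.3 (SD, n = 7) to 19.0 ± 6.89 CPM (n = 6) in E3/Abca1+/- mice. In E4/Abca1+/+ mice they fell from 29.8 ± 8.68 (n = 7) to 20.1 ± 3.96 CPM (n = 7), with 2 of 7 TBI mice below every sham mouse. The E4/Abca1+/+ call was lost when any 1 of 8 mice was left out, sham replicates 1, 3, 4 and 7 and TBI replicates 1, 4, 5 and 7, with values from −0.67 to −0.46 over the 14 mice left out, and in 1 fit over all 58 mice (adjusted p = 0.163 by edgeR). In the other 2 genotypes the log2 fold changes were −0.68 ± 0.28 (adjusted p = 0.0947) in E3/Abca1+/+ and −0.50 ± 0.22 (adjusted p = 0.0961) in E4/Abca1+/- mice, not called. The latter passed without TBI replicate 7 (−0.60, adjusted p = 0.0456 by edgeR) or sham replicate 2 (−0.60, adjusted p = 0.0467). Junb was called only in E3/Abca1+/- mice (−0.57 ± 0.18, adjusted p = 0.0311), from 63.3 ± 14.0 (SD, n = 7) to 42.8 ± 13.5 CPM (n = 6), and lost the call without any 1 of 8 of the 13 mice, sham replicates 2, 4, 5 and 6 and TBI replicates 1, 2, 5 and 6, with values from −0.72 to −0.49. Its other log2 fold changes were not called and moved with single mice. They were −0.31 in E3/Abca1+/+ (−0.19 without sham replicate 6), −0.18 in E4/Abca1+/+ (−0.08 without sham replicate 7 and −0.30 without TBI replicate 2) and −0.23 in E4/Abca1+/- mice (−0.10 without sham replicate 5).

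Egr2 and Egr4, relatives of Egr1, had fewer calls than Egr1. The biological coefficient of variation was 44.4% for Egr2 and 31.6% for Egr4, against 30.2% for Egr1. Their mean log2 fold changes over the 4 genotypes were −0.91 and −0.67, against −0.99 for Egr1. Egr2, known also for its role in myelinating cells, was called in E3/Abca1+/- mice, where it fell from 13.8 ± 6.01 (SD, n = 7) to 5.23 ± 2.04 CPM (n = 6), a log2 fold change of −1.40 ± 0.29 (adjusted p = 0.00191). In the other 3 genotypes it was −0.89 ± 0.33, −0.58 ± 0.30 and −0.76 ± 0.31, with adjusted p from 0.0602 to 0.223. The E4/Abca1+/- value passed without the mouse that stood apart (−0.85, adjusted p = 0.0488 by edgeR), without TBI replicate 3 or sham replicate 1 or 2, and with sex as a covariate (−0.64, adjusted p = 0.0273). The E4/Abca1+/+ value moved to −0.28 without sham replicate 7. In E3/Abca1+/+ mice Egr2 passed without sham replicate 4 or 8 or TBI replicate 1 or 7 and in 1 fit over all 58 mice. The mean of Egr2 over the 4 genotypes, −0.91 ± 0.17, was called. Egr4 was called in E3/Abca1+/- mice (−0.96 ± 0.21, adjusted p = 0.00261) and in E4/Abca1+/- mice (−0.64 ± 0.21, adjusted p = 0.0259). In the latter, Egr4 ran from 10.996 over 16.7 to 31.2 CPM in sham and from 7.55 over 11.7 to 14.7 in TBI mice, so that the groups overlapped. That call was lost without sham replicate 5 or 7 or TBI replicate 2 or 5, with values from −0.73 to −0.45, and with all libraries thinned to the lowest total (−0.57, adjusted p = 0.0835 by edgeR). Egr4 was not called in E3/Abca1+/+ mice, at the same size (−0.64 ± 0.24, adjusted p = 0.0630 by edgeR). It was also not called in E4/Abca1+/+ mice (−0.44 ± 0.22, adjusted p = 0.208 by edgeR), where it moved to −0.22 without sham replicate 7.

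Dusp1 encodes a phosphatase that switches off the MAP kinases that induce these genes. It was called lower in 3 genotypes, E3/Abca1+/- (log2 fold change −0.56 ± 0.19, adjusted p = 0.0386), E4/Abca1+/+ (−0.53 ± 0.11, adjusted p = 0.00440) and E4/Abca1+/- (−0.41 ± 0.15, adjusted p = 0.0464). In E4/Abca1+/+ mice it ran from 17.2 over 21.7 to 27.0 CPM in sham and from 12.4 over 15.99 to 17.6 in TBI mice, and 6 of 7 TBI mice lay below every sham mouse. Its E3/Abca1+/+ value was nearly the same size, −0.53 ± 0.21, with an adjusted p of 0.0764. Of the 3 calls, the one in E4/Abca1+/+ mice held with each mouse left out, and was lost in 1 fit over all 58 mice (adjusted p = 0.0612 by edgeR). The one in E3/Abca1+/- mice was lost without sham replicate 2, 3, 4 or 6 or TBI replicate 1, 2 or 6, with values from −0.70 to −0.46. The one in E4/Abca1+/- mice was lost without sham replicate 3, 4, 5, 6 or 7 or TBI replicate 2, 3, 4, 5 or 6, with values from −0.49 to −0.34, and also in 1 fit over all 58 mice (adjusted p = 0.0646 by edgeR), with sex as a covariate (0.0537) and with libraries thinned to the lowest total (0.0724).

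**Figure D3:**
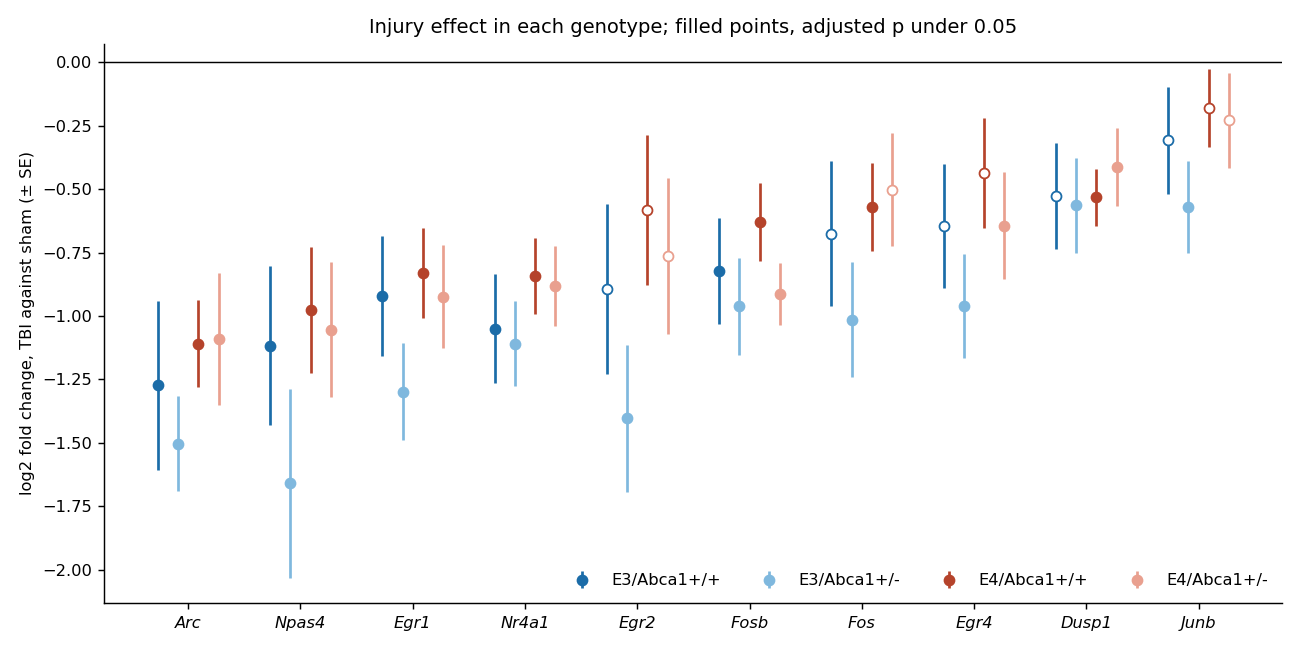
Log2 fold change, TBI against sham, with its standard error for each gene and genotype, in order of the mean over genotypes. Filled points passed an adjusted p under 0.05. All 40 values are below 0, from −1.66 for Npas4 in E3/Abca1+/- mice to −0.18 for Junb in E4/Abca1+/+ mice, and 29 of them are filled.

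Counted over gene and genotype, 29 of 40 comparisons were called lower, and 24 of the 29 held with each mouse left out in turn. How many were called in E3/Abca1+/+ mice depended on the fit and on single mice. In 1 fit over all 58 mice 9 genes were called, Fos, Egr2, Egr4 and Dusp1 in addition, with adjusted p by edgeR of 0.0451, 0.0479, 0.0450 and 0.0327. The same 4 genes were added without sham replicate 4, the lowest of its group for 7 of the 10 genes at a total of 4624048 reads, with log2 fold changes of −0.80, −1.002, −0.75 and −0.61. The count was 7 without TBI replicate 1 or 7 or sham replicate 8 (Egr2 with Egr4 or Dusp1), 6 without sham replicate 5 (Egr4), and 5 without any 1 of the other mice. Groups that did not overlap at all were few, 0, 2, 0 and 2 of the 10 genes in the 4 genotypes, where 2.03%, 3.39%, 0.765% and 2.39% of all genes had every TBI mouse below every sham mouse. The direction was the same in both sexes. In females and in males separately, the TBI mean was below the sham mean in 40 of 40 gene and genotype pairs, with log2 ratios of means from −1.68 to −0.15 in females and from −1.58 to −0.12 in males.

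The injury effect itself was then compared between genotypes and sexes with interaction terms. Of 40 tests, isoform by injury at each Abca1 copy number and Abca1 by injury in each isoform, 0 passed by edgeR and 0 by DESeq2 (0.00% of all genes by edgeR in each of the 4), and 0 had an unadjusted p under 0.05. The differences were from −0.54 to 0.64 on the log2 scale with standard errors from 0.20 to 0.52, so a difference of that size between genotypes could not be told from 0 in groups of this size. For Abca1 by injury 10 of 10 were negative in E3 and 7 in E4 (51.8% and 44.0% of all genes). For isoform by injury 1 of 10 was negative in Abca1+/+ and 0 in Abca1+/- mice (50.7% and 43.3%). The 10 genes vary together between mice, so these counts are not 10 separate results. In the sex by injury term 0 of 10 passed by edgeR and by DESeq2, where 0.00% of all genes passed by edgeR. Again 0 of the 10 had an unadjusted p under 0.05, and the values ran from −0.29 to 0.02, females minus males. The larger count of calls in E3/Abca1+/- mice is therefore not shown to differ from the other genotypes.

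Abca1 copy number was compared within isoform and injury state. In 40 tests over the 4 comparisons 0 genes were called by edgeR or by DESeq2, and 3 had an unadjusted p under 0.05, where 2.27% of all genes were called in E3 sham mice and 0.0923%, 1.36% and 0.870% in E3 TBI, E4 TBI and E4 sham mice. As a mean of the 4 comparisons 0 of the 10 were called, against 17.9% of all genes, and Junb came nearest (0.23 ± 0.10, adjusted p = 0.129). The single differences were from −0.37 for Npas4 in E3 TBI mice to 0.59 ± 0.23 for Egr4 in E3 sham mice (adjusted p = 0.191). In E3 sham mice 0 of the 10 were negative, where 50.6% of all genes were. In E3 TBI, E4 TBI and E4 sham mice 5, 5 and 4 were negative (52.0%, 45.2% and 50.9% of all genes). Here too the 10 genes vary together between mice, so these counts are not 10 separate results. Egr4 ran from 5.51 over 14.1 to 27.97 CPM in E3/Abca1+/+ sham mice and from 14.2 over 22.4 to 34.6 in E3/Abca1+/- sham mice, and these ranges overlap widely.

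Between isoforms, 1 of 40 tests was called by edgeR and by DESeq2, and 4 had an unadjusted p under 0.05. Of all genes 0.356% were called in Abca1+/+ sham, 0.211% in Abca1+/+ TBI, 5.11% in Abca1+/- sham and 2.74% in Abca1+/- TBI mice. The gene was Npas4 in Abca1+/- sham mice, lower in APOE4, where 2.45% of all genes were called lower. Npas4 ran from 12.7 over 17.5 to 34.2 CPM in the 7 E3 mice and from 8.77 over 11.8 to 15.8 in the 7 E4 mice, a log2 fold change of −0.77 ± 0.20 (adjusted p = 0.0370). The call was lost without any 1 of 6 of the 14 mice, E3/Abca1+/- sham replicates 2, 5, 6 and 7 and E4/Abca1+/- sham replicates 2 and 6, with values from −0.86 to −0.60. In the other 3 isoform comparisons Npas4 was also negative and not called, at −0.44 ± 0.32, −0.30 ± 0.23 and −0.18 ± 0.42. Egr1 was positive in all 4, at 0.40 ± 0.20 in Abca1+/+ sham, 0.49 ± 0.22 in Abca1+/+ TBI, 0.09 ± 0.16 in Abca1+/- sham and 0.47 ± 0.23 in Abca1+/- TBI mice. As a mean over the 4 comparisons, a contrast added after the data were seen, Egr1 was higher in APOE4 (0.36 ± 0.12, adjusted p = 0.0245, with 8.03% of all genes called higher), and Npas4 was not called (−0.42 ± 0.17, adjusted p = 0.0890).

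How the 10 genes varied together between mice was measured after the mean of each group was removed from log2(CPM + 1), in 29 sham and 29 TBI mice separately, with a permutation test of 100000 resamples and p adjusted over the 90 pairs of genes and states. In sham mice the 45 pairs had a median Pearson r of 0.68, from −0.05 to 0.91, and 36 passed by Pearson's r and 34 by Spearman's rho. In TBI mice the median was 0.63, from 0.14 to 0.91, and 40 passed by either measure. The 2 genes of a pair were read from the same libraries.

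Arc and Nr4a1 were the closest pair in both states. In sham mice r was 0.91 (rho 0.90, permutation adjusted p = 4.09e-05 for r and 4.29e-05 for rho) and 0.87 without the 2 mice farthest from the median of Arc, and in TBI mice r was 0.91 (rho 0.91, permutation adjusted p = 4.09e-05 and 4.29e-05), and 0.93 without 2 mice. The AP-1 partners Fos and Junb had r of 0.74 in sham (rho 0.74, permutation adjusted p = 0.000279 and 0.000360) and 0.88 in TBI mice (rho 0.88, permutation adjusted p = 4.09e-05 and 4.29e-05), and 0.69 and 0.87 without 2 mice. Fosb and Junb, which can also pair, had 0.35 in sham (rho 0.31, permutation adjusted p = 0.121 and 0.147) and 0.14 in TBI mice (rho 0.14, permutation adjusted p = 0.516 and 0.498). Npas4 and Fosb had the lowest value in sham mice, r = −0.05 (rho 0.01, permutation adjusted p = 0.832 and 0.958). Over all 58 mice, the correlation of each gene with the mean of the other 9 was 0.93 for Fos and 0.90 for Arc, and 0.52 for Fosb and 0.50 for Npas4.

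**Figure D4:**
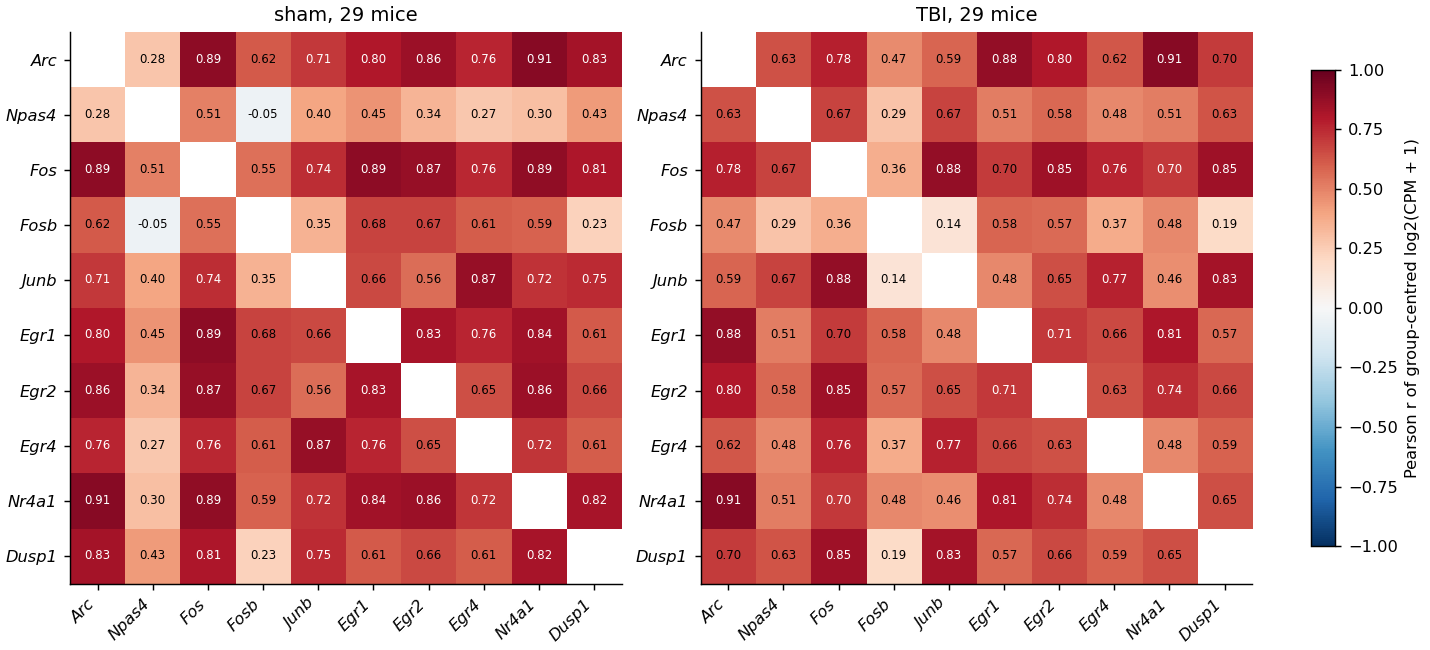
Pearson r between each pair of the 10 genes over 29 sham mice (left) and 29 TBI mice (right), on log2(CPM + 1) with group means removed. Values run from −0.05 to 0.91 in sham and from 0.14 to 0.91 in TBI mice, and the rows of Npas4 and Fosb are the palest in sham mice.

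Within sex the median r was 0.77 in females and 0.71 in males for sham mice, and 0.76 and 0.58 for TBI mice. Within Abca1 copy number it was 0.80 in Abca1+/+ and 0.51 in Abca1+/- sham mice, and 0.58 and 0.72 in TBI mice. The correlation of the 10 genes with the total count of the library had a median of 0.31 in sham and −0.10 in TBI mice, with 0 of 10 past the threshold in either state by Pearson's r and by Spearman's rho.

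The genes outside the 10 whose pattern over 58 mice was most like them, by Pearson r with the mean of the 10 standardized and group-centred values, were Per1 (0.77), Dusp6 (0.74), Sik1 (0.74), Nab2 (0.72), Midn (0.70), Trib1 (0.69), Irf2bp2 (0.69), Gadd45b (0.69), Rbm15 (0.68) and Chrm4 (0.68). The median r over 15161 genes was 0.02 and the 99th percentile 0.48. Per1 is a clock gene that also responds to CREB, Sik1 a kinase that restrains CREB signaling, Dusp6 a phosphatase of ERK, and Nab2 a corepressor of Egr proteins. Their mean log2 fold changes after TBI over the 4 genotypes were −0.27 ± 0.06 for Per1, −0.45 ± 0.06 for Dusp6, −0.16 ± 0.09 for Sik1 and −0.20 ± 0.06 for Nab2, and Sik1 was not called (adjusted p = 0.117).

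The other genes of the pathway did not move as 1 block after TBI. In the fit over the mean of the 4 genotypes, 8 of 21 other immediate early transcription factors were called lower and 7 higher, with a median log2 fold change of −0.02, where 53.3% of all genes were called in either direction. Egr3, another Egr family member, was lower (−0.89 ± 0.07), as was Ier5 (−0.60 ± 0.08). Higher were Atf3, a factor of injured neurons and glia (2.398 ± 0.18), Cebpd, a factor of the inflammatory response (1.36 ± 0.15), Myc (0.50 ± 0.06) and Jun (0.36 ± 0.06). Egr3 and Atf3 changed in their directions in all 4 genotypes, while Jun and Myc were called in 3.

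In the same fit, 24.3% of all genes were called lower and 53.3% in either direction. Of 26 immediate early effectors and feedback inhibitors 13 were lower and 3 higher, with a median of −0.15. The lower ones included Homer1, a scaffold of the synapse (−0.60 ± 0.06), the MAP kinase phosphatases Dusp5 (−0.76 ± 0.08), Dusp4 (−0.60 ± 0.07) and Dusp14 (−0.45 ± 0.06), the Ras pathway inhibitor Spry2 (−0.28 ± 0.04) and Arl4d (−0.64 ± 0.09), each called in 4 of 4 genotypes. Of 32 kinases and factors upstream, 21 were lower and 6 higher, with a median of −0.14. Camkk2, a calcium-dependent kinase (−0.47 ± 0.04), Grin1, the obligatory NMDA receptor subunit (−0.27 ± 0.03), and Mkl2, a cofactor of serum response factor (−0.28 ± 0.03), were lower, and the ERK1 gene Mapk3 (0.34 ± 0.03), Elk3 (0.70 ± 0.06) and Rps6ka1 (0.59 ± 0.05) were higher.

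Of 20 later activity-regulated genes 15 were lower and 2 higher, with a median of −0.33. Bdnf, the neurotrophin induced by activity, fell in all 4 genotypes (−0.55 ± 0.07), as did the prohormone convertase Pcsk1 (−0.77 ± 0.07), Vgf (−0.57 ± 0.06), Rgs4 (−0.58 ± 0.06), Nefm (−0.55 ± 0.06) and Fbxo33 (−0.28 ± 0.03). Of 15 clock genes 7 were lower and 2 higher, with a median of −0.11. That count is near the 53.3% of all genes called in either direction in the same fit, where 24.3% were called lower. Bhlhe40 (−0.37 ± 0.05), Arntl (−0.20 ± 0.04) and Hlf (−0.25 ± 0.05), all lower, were the clock genes called in the same direction in at least 3 genotypes. The hour at which each brain was taken is not given in the sources used here.

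**Figure D5:**
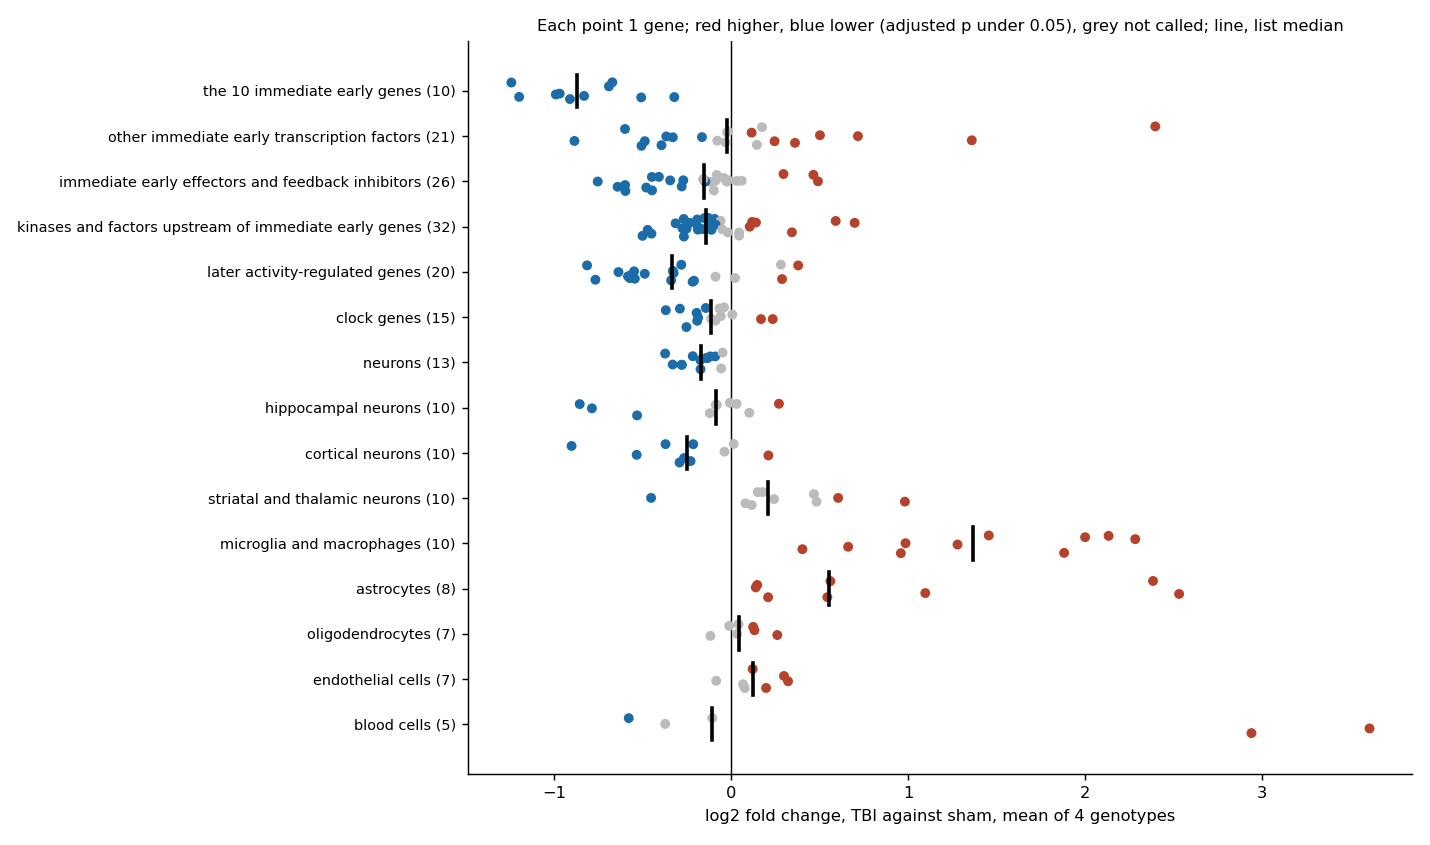
Log2 fold change after TBI, as the mean of 4 genotypes, of each gene of the 10 and of 14 other lists, with called genes in red (higher) or blue (lower), others in grey and the list median as a line. The median of the 10 is −0.87, that of the 13 neuronal markers −0.17 and that of the 10 microglia and macrophage markers 1.37.

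Some lists of markers of the cells in the tissue moved with injury too. In the fit over the mean of the 4 genotypes, 24.3% of all genes were called lower and 53.3% in either direction. Of 13 neuronal markers 11 were lower and 0 higher, with a median log2 fold change of −0.17, and their summed level was 10220 to 11418 CPM in sham and 7695 to 10249.9 CPM in TBI mice. Of 10 cortical neuron markers 7 were lower and 1 higher (median −0.25), of 10 hippocampal markers 3 and 1 (median −0.08), and of 10 striatal and thalamic markers 1 and 2 (median 0.21). All 10 markers of microglia and macrophages were higher (median 1.37, sums of 373 to 602 CPM in sham and 709 to 1656 in TBI mice), as were all 8 of astrocytes (median 0.55, sums of 5422 to 6986 and 6956 to 11243 CPM). Of the remaining lists, 3 of 7 oligodendrocyte and 4 of 7 endothelial markers were higher and 0 lower, and of 5 blood cell markers 2 were higher and 1 lower. For the hippocampal, striatal and thalamic, oligodendrocyte, endothelial and blood cell lists, the called share was below or near that of all genes. In bulk tissue, fewer neurons and less RNA per neuron cannot be told apart, and the part of the marker shifts in the fall of the 10 genes was not tested beyond these values.

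The same group-centred levels of the 10 genes were set against the summed level of each list. In sham mice their correlation with the summed CPM of the other immediate early transcription factors had a median r of 0.69, with 8 of 10 past the threshold over 300 tests by Pearson's r and by Spearman's rho, and with the effectors and inhibitors 0.68, with 7 of 10. With neuronal markers the median was 0.16 in sham and −0.02 in TBI mice, and with microglia and macrophage markers −0.34 and 0.23, with 0 of 10 past the threshold in each. Exceptions among the marker lists were blood cells in sham mice (median 0.38), with 2 past the threshold by Pearson's r and 4 by Spearman's rho, and cortical neurons in TBI mice (median 0.08), with 1 by each, Egr1 (r = 0.56, rho 0.55, permutation adjusted p = 0.0237 and 0.0316, 0.46 without the 2 farthest mice). The mouse that stood apart was the highest of its group for both Egr1 and the cortical neuron sum, and the correlation without it alone was not tested. For blood cells and Nr4a1 r was 0.49 over 29 sham mice (rho 0.56, permutation adjusted p = 0.0323 and 0.0299) and 0.48 without the 2 farthest mice, at summed blood marker levels of 0.457 to 10.7 CPM.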

How the data were processed

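Reads of 58 libraries, 1 per mouse, had been aligned and summarized per gene by the authors with Subread 1.5.0 and featureCounts (build mm10, both from the submitters' processing notes), and the authors deposited read counts without normalization for 15173 lines. Of these, 2 lines had no symbol and were left out, and 23 symbols turned into dates were restored to their current names, leaving 15171 genes; 0 columns lacked a sample. No pair of libraries held identical counts, and replicates of a group differed by more than counting noise in all 183 pairs. Replicates are mice, numbered by accession within a group.

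Counts were scaled with TMM factors over all 58 libraries and tested with edgeR 4.0.16 in R 4.3.3 (glmQLFit, glmQLFTest, Benjamini-Hochberg over all genes), within the groups compared, or over 8 group means for the mean of the 4 genotypes. filterByExpr removed no gene. Standard errors are the log2 fold change divided by the square root of F. Alternatives were DESeq2 1.42.0, its size factors, other filters, sex as a covariate, thinning to 4421308 reads, 1 fit over all mice, and each of 58 mice left out. Fits were run on simulated counts of independent genes that all had the same spread, lower than that of the immediate early genes. That run did not test how the fits perform on these genes. Correlations used scipy 1.17.1 and numpy 2.4.6 with permutations within groups. Exon lengths came from GENCODE M21 and promoters from RefSeq.

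The 10 genes, the other lists and the marker lists were chosen with earlier results of these data known, so their directions are not independent evidence. From each of the 5 other pathway lists the text names genes called in the same direction in at least 3 of 4 genotypes, at most 6 a list by smallest p over 58 mice, and the 10 genes most correlated with the members.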

Additional observations from a re-analysis of the deposited data

Results flagged for a closer look

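Each of the 10 genes was looked at in each of the 8 groups for a mouse far from the others of its group, by the gap to the nearest mouse over the range of the group (Dixon's ratio). Of 80 such sets of values, 8 held such a mouse, all at the high end, over 7 mice. A rate of about 1 in 20 would hold for independent sets of normally distributed values. Here the ratio was taken on CPM without a log scale, and the sets share mice and genes that vary together. The 8 of 80 were therefore not tested against that rate. In E3/Abca1+/+ sham mice these were Npas4 at 39.9 CPM in replicate 7 (next highest 21.3) and Fosb at 48.2 CPM in replicate 6 (next 29.7). In E4/Abca1+/+ sham mice, replicate 7 was far above the rest for Fosb (37.0 CPM, next 25.1) and for Egr4 (30.9 CPM, next 17.3), and it was the highest of its group for 8 of the 10 genes. In E3/Abca1+/- sham mice Dusp1 reached 37.5 CPM in replicate 6 (next 26.7). Among TBI mice they were Fosb at 21.0 CPM in E3/Abca1+/+ replicate 1 (next 14.7), Arc at 182 CPM in E4/Abca1+/+ replicate 3 (next 126) and Npas4 at 12.8 CPM in E4/Abca1+/- replicate 3 (next 6.75). None of the injury calls of Arc, Npas4 and Fosb was lost when any 1 of these mice was left out. The Dusp1 call in E3/Abca1+/- mice was lost without replicate 6 of the sham group.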

How the results depend on the processing

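Over 50 log2 fold changes after TBI, 904 of 970 alternative values kept direction and side of the threshold, 44 lost a call, 22 gained one and 0 reversed. Among the 904 are 50 values with no filter and 50 with a filter of 1 CPM in 6 mice. Both filters kept the same genes as the main fit, so these values repeat it and could not differ. Counts of called genes moved over 1.5 times, apart from mice left out, in 1 fit over all 58 mice, to 9 (E3/Abca1+/+) and 4 (E4/Abca1+/+), where the 4 genotypes share 1 estimate of the spread. With 1 mouse left out the counts were 5 to 9 in E3/Abca1+/+, 8 to 10 in E3/Abca1+/-, 6 to 7 in E4/Abca1+/+ and 5 to 9 in E4/Abca1+/- mice. The added mean of the 4 isoform comparisons called 1 gene, Egr1 in place of Npas4. Egr1 between isoforms in Abca1+/- sham mice, not called, reversed to −0.018 without E4/Abca1+/- sham replicate 7, with −0.018 to 0.199 over the mice left out. Pairs of genes past the threshold moved from 36 to 23 in females and 15 in Abca1+/- mice for sham, and from 40 to 21 in males and 20 in Abca1+/+ mice for TBI, with fewer mice in each. With all libraries thinned to the lowest total, 2 calls were lost, Egr4 and Dusp1 in E4/Abca1+/- mice. No paired analysis was possible because the labels give no replicate numbers shared between groups.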

Other observations

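Of the 10 genes outside the members whose pattern between mice was most like theirs, 6 were called lower after TBI as a mean of the 4 genotypes. In that fit 24.3% of all genes were called lower and 53.3% in either direction. Among the 6 were Trib1 (log2 fold change −0.48 ± 0.07), Midn (−0.26 ± 0.06) and the muscarinic receptor gene Chrm4 (−0.29 ± 0.07). Within single genotypes, Trib1 was called lower in 3, Midn in 1 and Chrm4 in 2. Irf2bp2 (0.10 ± 0.05, adjusted p = 0.0697), Gadd45b (−0.12 ± 0.08, adjusted p = 0.243) and Rbm15 (−0.11 ± 0.05, adjusted p = 0.0851) were not called by edgeR. The sham mouse highest for 8 of the 10 genes in E4/Abca1+/+ mice was replicate 7, and in the E3/Abca1+/+ and E3/Abca1+/- sham groups replicates 6 and 4 were each the highest for 7.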
